A study of Sus scrofa with 16 samples.

Results

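The report concerns the way the effect of antibiotics on intestinal gene expression differed between the proximal and the distal small intestine of preterm piglets. It uses 16 of 16 arrays of the series, taken in 4 groups of 4 by the segment and treatment in their names, and for every probe set it takes the antibiotic effect in distal tissue minus the effect in proximal tissue. The piglets, of the cross Landrace x Large white x Duroc, came from 2 sows by caesarean section on gestation day 105, were fed parenterally for 3 days and then by tube for 2 days, and tissue was taken on day 5. Of 24 piglets in the study, 11 received Ampicillin, Gentamycin and Metronidazol from birth, both by mouth and into muscle, and 13 received saline. The groups (control and antibiotics, each in proximal and in distal tissue) therefore differ in segment and in drug and share breed, age, prematurity and feeding. The numbers in the array names, read here as animal numbers, give 9 animals, of which 7 contributed both segments (antibiotics 86, 87 and 95, control 83, 88, 89 and 92). Animal 98 contributed proximal and animal 85 distal tissue alone, both with antibiotics.

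The proximal small intestine digests and absorbs most dietary fat, sugar and protein, whereas the distal part takes up bile acids and vitamin B12, holds more bacteria and, in the newborn pig, has enterocytes rich in lysosomes. Microbial products drive defence genes in the epithelium, among them interferon-induced GTPases and protease inhibitors, and broad-spectrum antibiotics lower that load. Formula-fed preterm piglets are prone to necrotizing enterocolitis, an inflammation of the immature gut, and are a model of that disease.

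Levels are on the deposited log2 scale, where 1 unit is a doubling, the floor is 2.14 and a level up to 5 is treated as dim. Arrays of a group correlated with each other at 0.878 to 0.981 over the 11538 tested probe sets, and no arrays were identical. The ileal bile acid binding protein gene FABP6 checked the segment labels: it was 6.64 to 11.03 in distal tissue and 2.28 to 3.49 in proximal tissue, apart from control proximal 88 at 7.40. The list of distal segment genes lay at 9.43 to 9.93 in distal and 6.56 to 8.39 in proximal arrays. Several controls stood apart. Control distal 83 and 88 held the antimicrobial peptide gene LEAP2 at 12.13 and 11.83, as proximal tissue did (10.52 to 12.95), against 3.76 and 7.57 in control distal 89 and 92. Control proximal 83 and 92 were lowest of the proximal arrays in enterocyte markers (13.54 and 13.72, the others 14.20 to 14.88). Values without these arrays stand beside the results that moved most with them. In bulk tissue, fewer cells of a type and less RNA per cell cannot be told apart.

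The antibiotic effect differed between the segments for a small set of genes, most of which changed in distal tissue alone. TDH, UPK3A, XIRP2 and TDRP rose with antibiotics in distal tissue, and GBP1 and PI3 fell there, while their proximal means differed by 0.47 or less. For PI3, which was dim in proximal tissue with either treatment, a fall there could not have been measured. MFSD2A, INSIG1, GPD1L and TMEM135 had higher means with antibiotics in proximal and lower means in distal tissue, and SLC1A1 had the reverse. In limma's test of the difference between the effects, 22 of 11538 probe sets (0.191%) were past the threshold, an adjusted p of 0.05. Of these, 12 (0.104%) had a more positive and 10 (0.0867%) a more negative effect in distal tissue. They comprised 12 probe sets of 11 named genes and 10 without a gene name. Only probe sets above log2 5 on at least 4 arrays were tested. TDH, UPK3A, XIRP2, TDRP and several unnamed probe sets met this filter only through the antibiotics distal group, where they are high. The count of distal rises therefore depends in part on the filter. Without the filter the count was 11, and of the 11 named genes only TDH, UPK3A and GBP1 passed. With the animal as a fixed block the count was 9, and with the animal as a random block it was 39. It was 10 without control distal 83 and 88, and 10 without control proximal 83 and 92. At an unadjusted p of 0.05, 764 probe sets (6.62%) were counted, where 576.9 are expected by chance alone, and 38 (0.329%) passed an adjusted p of 0.10.

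Sorted by the segment in which the unadjusted p was under 0.05, 15 of the 22 probe sets differed in distal tissue alone, 11 upward and 4 downward. The other 7 differed in both segments in opposite directions, 6 of them upward in proximal and downward in distal tissue. None of the 22 differed in proximal tissue alone or in the same direction in both. Among the 764 probe sets at the unadjusted p, 400 differed in distal tissue alone, 207 in proximal tissue alone, 34 in opposite directions, 12 in the same direction and 111 in neither. Tested within a segment, antibiotics changed 245 probe sets (2.12%) in distal tissue, 118 upward (1.02%) and 127 downward (1.1%), and 17 (0.147%) in proximal tissue, 7 upward (0.0607%) and 10 downward (0.0867%). Leaving out each array in turn, the distal count ran from 106 (without control distal 92) to 353 (without control distal 88). The proximal count ran from 2 (without control proximal 83) to 556 (without control proximal 88), and without control proximal 83 and 92 the proximal count was 1. The arrays of the treatments did not overlap for 12.7% of probe sets in distal and 3.05% in proximal tissue. Of the 235 called in distal tissue alone, 17 also passed the test of the difference between segments, so for most of them a difference from the proximal effect was not shown.

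**Figure D1:**
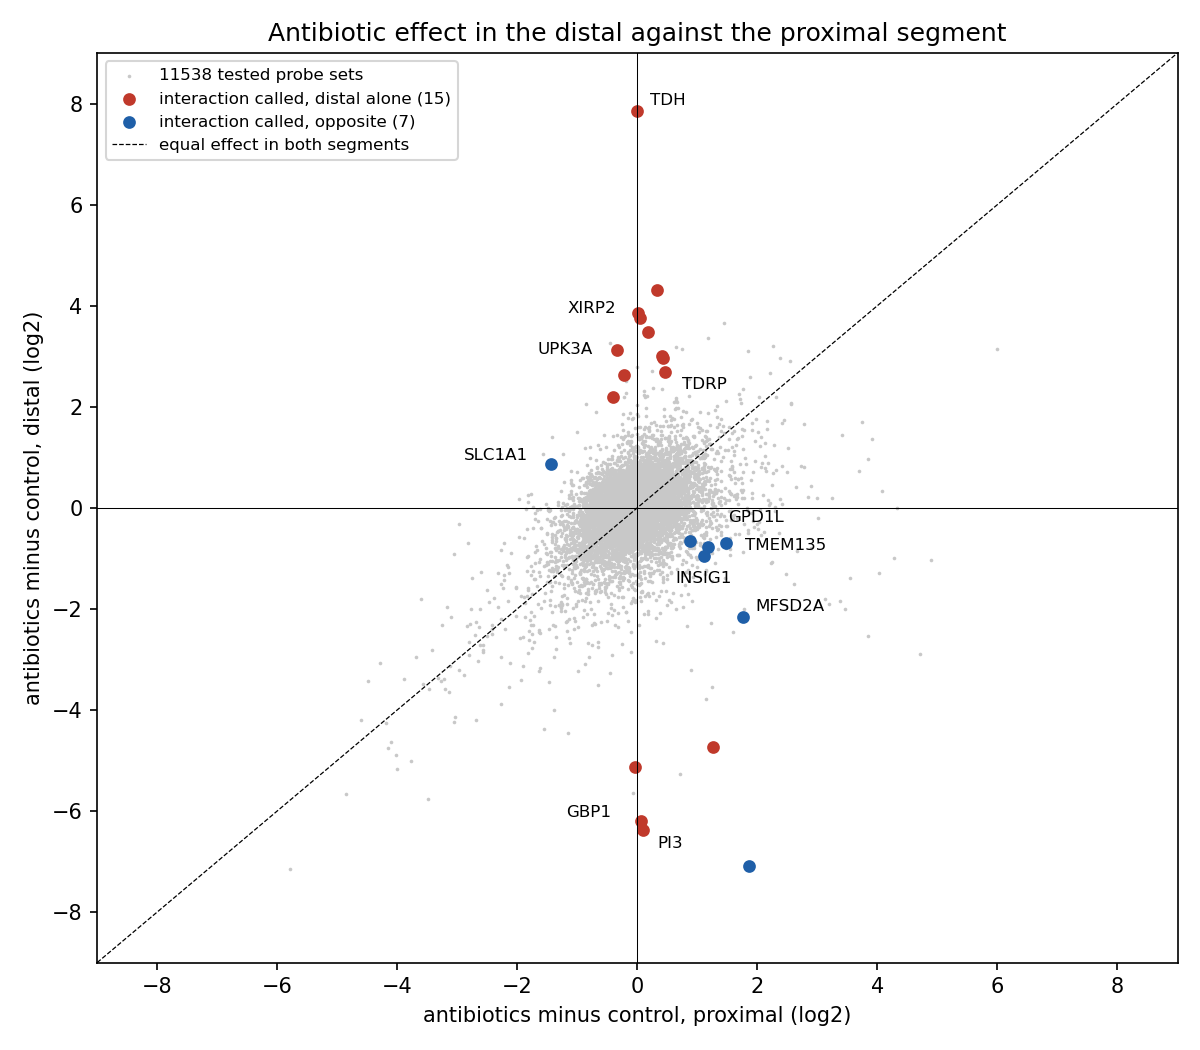
Antibiotics minus control in distal tissue (vertical axis, log2) against the same in proximal tissue (horizontal axis, log2), 1 point per probe set, 4 arrays per group. Red points, 15 in all, passed the test of the difference between segments and differed in distal tissue alone, and most lie close to the vertical line at 0; the 7 blue points differed in opposite directions and lie in the upper left or lower right.

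Of the genes that rose in distal tissue alone, TDH had the lowest p. It encodes L-threonine dehydrogenase, a mitochondrial enzyme that starts the breakdown of threonine. Its level was 10.40, 9.73, 10.62 and 9.92 in the antibiotics distal arrays 85, 86, 87 and 95, and 2.14 in every other array except control distal 89 at 2.86. All 4 treated distal arrays thus stood far above 12 arrays at or close to the floor. The effect in distal tissue exceeded that in proximal tissue by 7.84 (SE 0.31, limma adjusted p 5.8e-10). Because the controls were dim, the rise is stated as at least 35.9-fold, with log2 5 set in place of the control mean.

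UPK3A encodes uroplakin 3A, a membrane plaque protein best known from the urothelium. It was 7.48, 6.86, 7.09 and 7.12 in antibiotics distal tissue, 3.72 to 4.32 in control distal tissue, 3.70 to 3.72 in antibiotics proximal tissue and 3.70, 3.70, 5.10 and 3.70 in control proximal tissue. The treated distal arrays did not overlap with any other group. The difference between the effects was 3.46 (SE 0.41, limma adjusted p 0.00202), and the distal rise was at least 4.39-fold. With the animal as a fixed block the adjusted p was 0.0810. Of 4 urothelial markers on the array, UPK3A included, 2 never exceeded 5. The mean of the 4 was 3.32 to 3.48 in antibiotics distal against 2.56 to 3.34 in control distal tissue. In proximal tissue it was 2.54 to 2.90 against 2.71 to 3.72. Because UPK3A enters this mean, it does not describe the other markers by themselves.

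XIRP2, which encodes an actin-binding protein of striated muscle, was 6.33, 8.28, 8.09 and 8.18 in antibiotics distal tissue and 2.84 to 4.67 in control distal tissue. Proximal arrays all lay between 2.70 and 3.13. The difference between the effects was 3.84 (SE 0.63, limma adjusted p 0.0179), and the distal rise was at least 6.59-fold. Of 8 skeletal muscle markers on the array, XIRP2 included, 5 never exceeded 5, and the mean of the 8 was 3.47 to 3.91 with antibiotics and 2.91 to 4.04 in controls in distal tissue. Their part in the result was not tested.

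TDRP, testis development related protein, was 6.05, 6.85, 6.23 and 7.08 in antibiotics distal tissue, with all other arrays at 3.39 to 4.85. The treated distal arrays were again the only ones above 5. The difference between the effects was 2.22 (SE 0.42, limma adjusted p 0.0456) and the distal rise at least 2.93-fold.

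**Figure D2:**
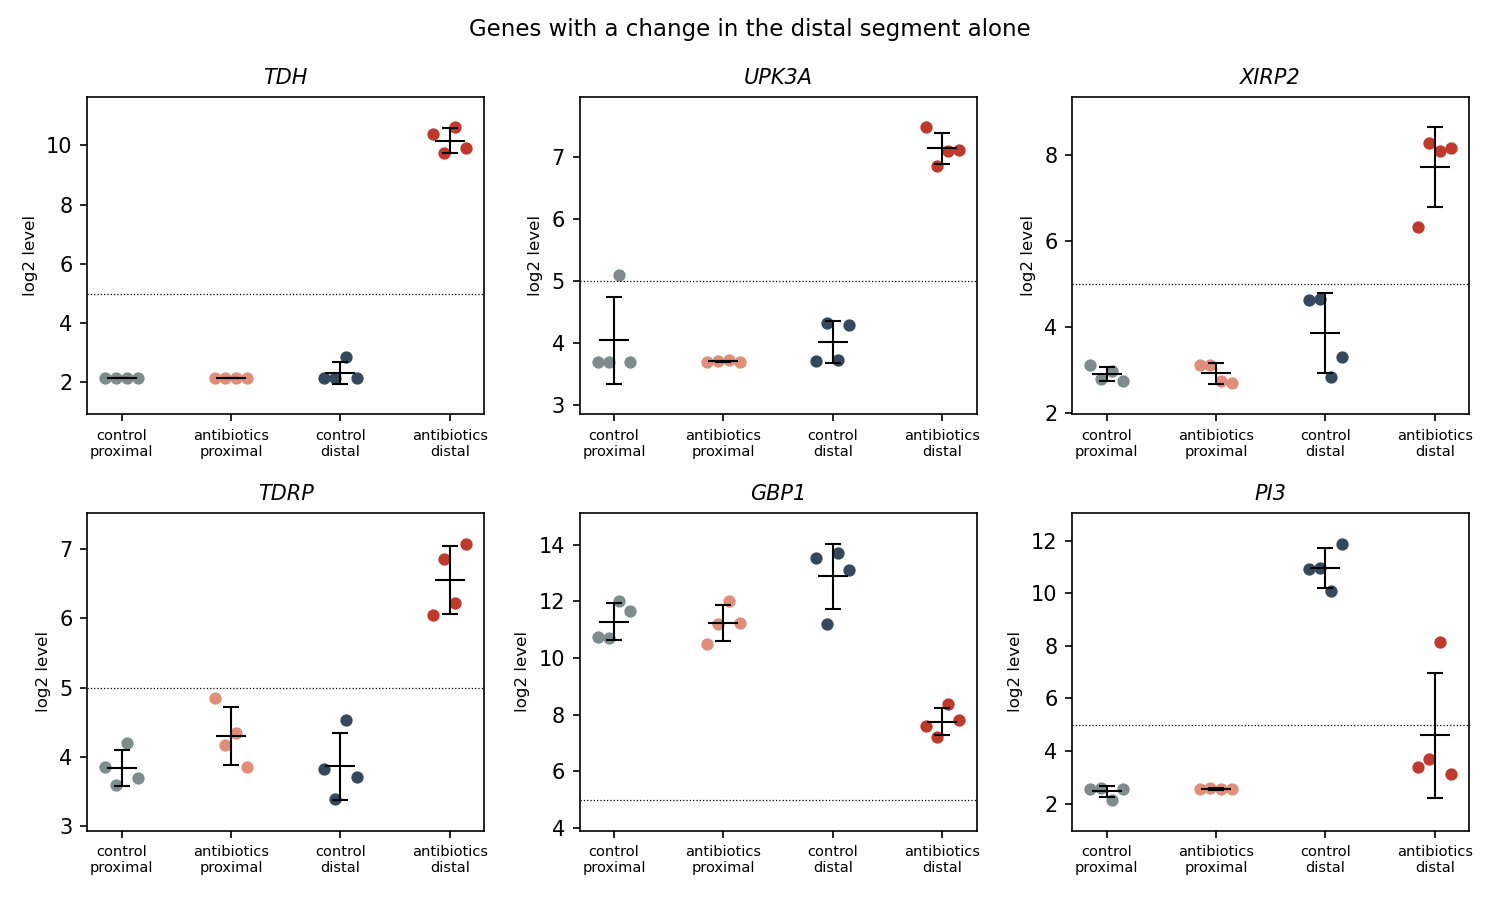
Level of 6 genes (vertical axes, log2) on each of 16 arrays, in 4 groups; points are arrays, horizontal bars and whiskers the mean and SD (n = 4), and the dotted line marks log2 5. TDH, UPK3A, XIRP2 and TDRP stand apart in the antibiotics distal group, where GBP1 is lowest. PI3 is highest in control distal tissue, and antibiotics distal 87 also lies above log2 5 (8.13).

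Among genes that fell in distal tissue alone, GBP1 and PI3 passed the test of the difference. GBP1 encodes guanylate-binding protein 1, an interferon-induced GTPase that acts against intracellular microbes. It was 7.62, 7.21, 8.37 and 7.81 in antibiotics distal tissue and 13.54, 11.19, 13.70 and 13.12 in control distal tissue. In proximal tissue it was 10.49 to 12.03 with antibiotics and 10.72 to 12.03 in controls. The distal groups did not overlap, whereas the proximal groups covered almost the same range. The distal level was 35.1-fold lower with antibiotics, the proximal difference was -0.04 (SE 0.50), and the difference between the effects was -5.09 (SE 0.71, limma adjusted p 0.00486). Of the other GBP1 probe sets, 1 gave -6.25 (adjusted p 0.00392) and 1 gave -4.09 (adjusted p 0.0939).

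GBP2, a second guanylate-binding protein, did not pass (-5.96, SE 1.19, limma adjusted p 0.0643). It was 5.08, 4.21, 5.96 and 4.54 in antibiotics distal tissue against 12.20, 6.72, 10.40 and 11.51 in control distal tissue. Control distal 88 was the low control, and without it the adjusted p was 0.000149. Without any other single array GBP2 did not pass (0.0504 to 0.153), nor without control proximal 83 and 92 (0.321). The proximal arrays, at 8.13 to 10.27, overlapped.

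PI3 encodes elafin, an inhibitor of neutrophil elastase made by stressed epithelium. It was 10.91, 10.97, 10.07 and 11.89 in control distal tissue and 3.40, 3.71, 8.13 and 3.13 in antibiotics distal tissue, in the order of animals 85, 86, 87 and 95. The treated animal 87 lay between the other treated arrays and the controls, and the groups did not overlap. In proximal tissue PI3 was dim with either treatment (2.15 to 2.60), so a fall there could not have been measured. The difference between the effects was -6.46 (SE 1.11, limma adjusted p 0.0277). SPAI-2, a related porcine protease inhibitor gene, had the same layout: 11.34 to 12.37 in control distal tissue, 8.19, 2.31, 7.30 and 6.71 in antibiotics distal tissue and 2.14 to 2.35 in proximal tissue. Its difference of -5.57 (SE 1.18) did not pass (limma adjusted p 0.0789).

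For the named genes with opposite responses the adjusted p of the difference between the effects was 0.0281 to 0.0363. Opposite here means an unadjusted p under 0.05 in each segment, and none of these genes passed the adjusted p in both segments. MFSD2A, a transporter of lysophospholipids that carry long-chain fatty acids, was 9.54, 8.96, 8.89 and 7.81 in antibiotics proximal tissue and 6.19, 6.96, 7.97 and 7.08 in control proximal tissue. In distal tissue it was 6.36, 6.21, 4.52 and 5.61 with antibiotics and 8.69, 7.50, 6.78 and 8.37 in controls. The distal groups did not overlap, and in proximal tissue antibiotics 98 lay below control 89. MFSD2A fell in distal tissue by 2.16 (SE 0.51, limma adjusted p 0.0393, and 0.124 without control distal 83 and 88). Its proximal mean was 1.75 higher (SE 0.51, adjusted p 0.181), and the difference between the effects was -3.91 (SE 0.72, adjusted p 0.0363).

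INSIG1 encodes a sterol sensor of the endoplasmic reticulum that holds back cholesterol synthesis. Its level was 13.55, 13.52, 12.61 and 13.27 in antibiotics proximal and 12.22, 11.78, 11.92 and 12.56 in control proximal tissue. In distal tissue it was 13.14, 12.95, 12.44 and 12.36 with antibiotics and 14.10, 13.41, 13.59 and 13.60 in controls. Groups did not overlap in either segment, and controls were the lower group in proximal and the higher group in distal tissue. The effects were 1.12 (SE 0.27, limma adjusted p 0.110) in proximal and -0.95 (SE 0.27, adjusted p 0.0820) in distal tissue. They differed by -2.07 (SE 0.38, limma adjusted p 0.0363).

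GPD1L, a relative of glycerol-3-phosphate dehydrogenase, also showed no overlap in either segment. It was 13.98, 13.69, 13.79 and 12.95 against 11.93, 12.59, 12.85 and 12.33 in proximal tissue, antibiotics first. In distal tissue it was 11.07, 11.22, 11.07 and 11.44 against 12.01, 12.05, 12.08 and 11.78. The treated arrays were thus the higher ones in proximal and the lower ones in distal tissue. The effects of 1.17 (SE 0.24, limma adjusted p 0.0695) and -0.78 (SE 0.24, adjusted p 0.120) differed by -1.95 (SE 0.35, adjusted p 0.0301). Over all tested probe sets, 4 (0.0347%) had higher proximal and lower distal levels with no overlap in either segment, and 7 (0.0607%) had the reverse. GPD1L and INSIG1 are among the 4. These counts come from the arrays that chose the genes and were not compared with a number expected by chance.

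TMEM135, a membrane protein of mitochondria and peroxisomes, was 9.33, 8.88, 9.82 and 9.06 in antibiotics proximal and 7.60, 7.71, 8.12 and 7.77 in control proximal tissue. Distal arrays were 7.30, 7.16, 7.40 and 7.95 with antibiotics and 8.03, 8.70, 7.65 and 8.26 in controls. The proximal groups were clear of each other and the distal groups overlapped. TMEM135 rose in proximal tissue by 1.47 (SE 0.27, limma adjusted p 0.0464, and 0.593 without control proximal 83 and 92), its distal mean was lower with antibiotics (-0.71, SE 0.27, adjusted p 0.203), and the effects differed by -2.18 (SE 0.38, adjusted p 0.0281).

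SLC1A1, the epithelial glutamate and aspartate transporter, ran the other way. It was 6.27, 6.29, 6.22 and 5.68 in antibiotics proximal and 7.68, 7.31, 7.51 and 7.70 in control proximal tissue, and 8.93, 9.20, 9.13 and 9.35 against 8.70, 7.88, 7.51 and 9.05 in distal tissue. Treated arrays were lower than every control in proximal tissue, and in distal tissue the groups overlapped. The effects were -1.43 (SE 0.29, limma adjusted p 0.0637) in proximal and 0.87 (SE 0.29, adjusted p 0.144) in distal tissue. They differed by 2.30 (SE 0.41, adjusted p 0.0301). The other measured SLC1A1 probe set, which was brighter, gave 1.61 (SE 0.46) and did not pass (adjusted p 0.305).

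**Figure D3:**
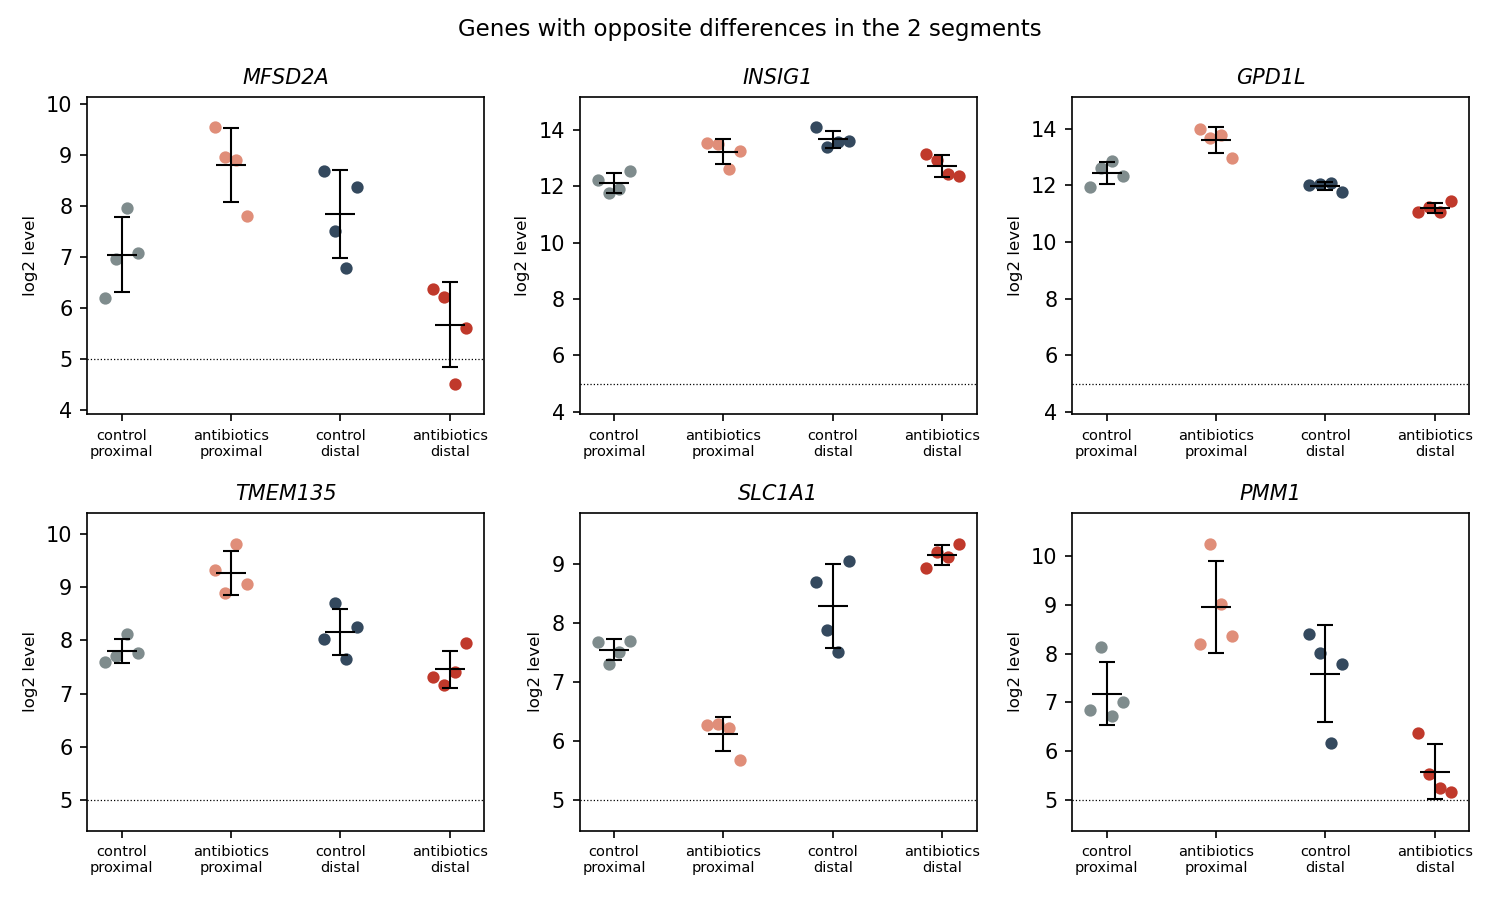
Level of 6 genes (vertical axes, log2) on each of 16 arrays, in 4 groups; points are arrays, horizontal bars and whiskers the mean and SD (n = 4), and the dotted line marks log2 5. In MFSD2A, INSIG1, GPD1L, TMEM135 and PMM1 the antibiotics mean is above control in proximal and below it in distal tissue, and in SLC1A1 the reverse; PMM1 did not pass the test of the difference (adjusted p 0.0507).

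Leaving out 1 array at a time, TDH, UPK3A and GBP1 passed in 16 of 16 fits, and the sign of all 11 differences was kept throughout. XIRP2 passed in 11 fits, TMEM135 in 7, MFSD2A and INSIG1 in 5, PI3, GPD1L and SLC1A1 in 4 and TDRP in 3. Of the 11 calls, 8 were lost without control proximal 83 (adjusted p up to 0.115) and 8 without antibiotics distal 86 (up to 0.125). Without antibiotics proximal 86, antibiotics proximal 95, control distal 92 or antibiotics distal 95, 7 were lost (up to 0.0804, 0.107, 0.115 and 0.124). Without control proximal 92, antibiotics proximal 87, control distal 83 or antibiotics distal 87, 6 were lost (up to 0.0819, 0.0946, 0.110 and 0.0928). Without control distal 88, 5 were lost (up to 0.0873), and without control proximal 89, antibiotics proximal 98 or antibiotics distal 85, 4 (up to 0.0960, 0.0798 and 0.0698). No call was lost without control proximal 88 or control distal 89. With the animal as a fixed block, TDH, GBP1 and XIRP2 passed and the other 8 did not (adjusted p 0.0772 to 0.148). Without control distal 83 and 88, TDH, UPK3A, GBP1 and XIRP2 passed and the other 7 did not (0.109 to 0.223). Without control proximal 83 and 92, TDH, UPK3A and GBP1 passed and the other 8 did not (0.0665 to 0.262).

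Within animals, the same genes were compared as distal minus proximal tissue of each of the 7 piglets with both segments. For TDH the difference was 7.59, 8.47 and 7.78 in the treated animals 86, 87 and 95, and 0.00, 0.00, 0.72 and 0.00 in the control animals 83, 88, 89 and 92. For GBP1 it was -3.28, -2.84 and -4.22 with antibiotics and 2.81, 0.47, 1.67 and 1.46 in controls, so the segment with more GBP1 was the distal one in every control and the proximal one in every treated animal. INSIG1 likewise was higher in distal tissue in 4 of 4 control animals (1.05 to 1.88) and lower there in 3 of 3 treated animals (-1.08 to -0.25). These are values of the contrast that chose the genes, on the same arrays, and are given as a description. Read over all probe sets, the 2 segments differed at 606 (5.25%) with antibiotics and at 42 (0.364%) in controls. Leaving out each array in turn, the count with antibiotics ran from 353 (without antibiotics proximal 95) to 680, and that in controls from 25 (without control distal 92) to 77 (without control proximal 88).

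**Figure D4:**
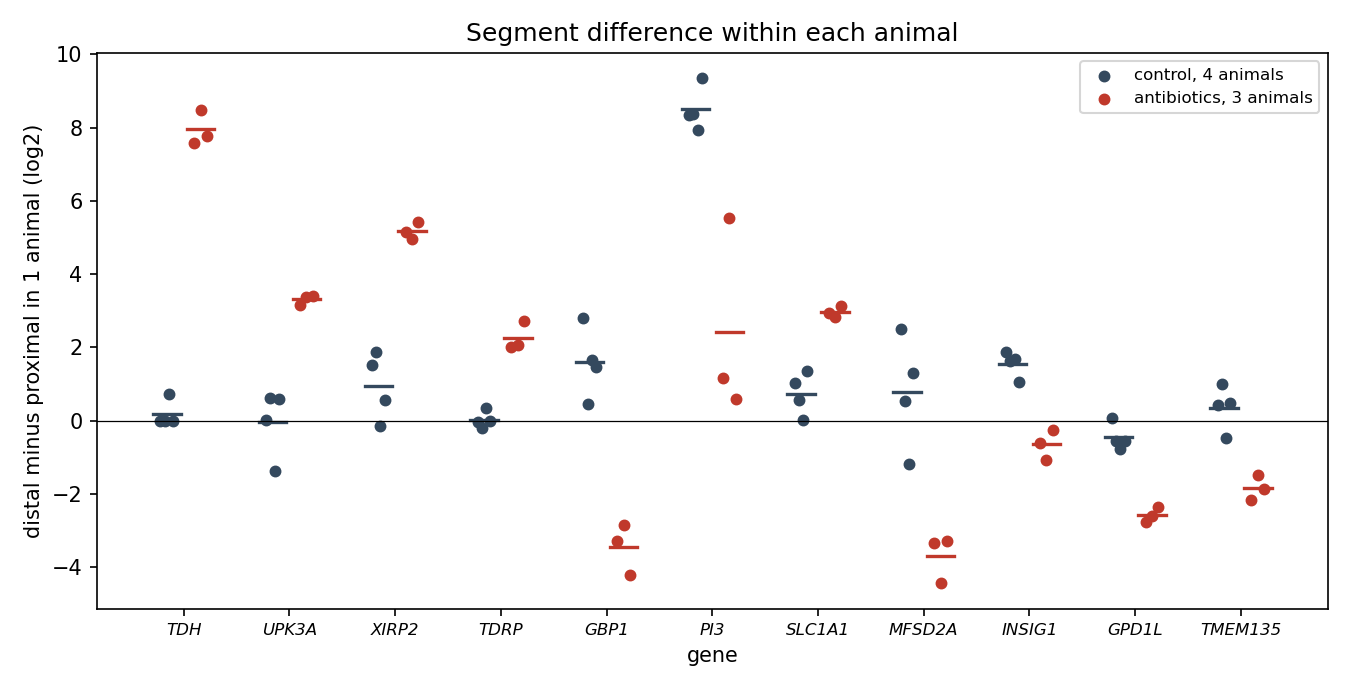
Distal minus proximal level within each animal (vertical axis, log2) for 11 genes; dots are animals (4 control, 3 with antibiotics) and bars their means. For TDH the treated animals lie at 7.59 to 8.47 and the controls at 0.00 to 0.72, and for GBP1, INSIG1 and TMEM135 the treated means are below and the control means above 0.

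Of the next genes by p, none passed at 0.05, and they are given as values. PMM1, a phosphomannomutase that feeds glycosylation, was 8.20, 10.26, 9.01 and 8.35 in antibiotics proximal and 6.72 to 8.13 in control proximal tissue, and 5.15 to 6.38 against 6.16 to 8.39 in distal tissue. The effects of 1.78 and -2.01 differed by -3.79 (SE 0.73, limma adjusted p 0.0507). PMM1 passed in 2 of 16 fits without 1 array (adjusted p 0.0296 without control proximal 88 and 0.0130 without control distal 89), and the other 14 gave 0.0524 to 0.134. It did not pass without control distal 83 and 88 (0.256) or control proximal 83 and 92 (0.304). ELOVL6, a fatty acid elongase of lipid synthesis, had differences of -2.28, -2.10 and -3.51 at its 3 measured probe sets (adjusted p 0.0661, 0.107 and 0.147). LPGAT1, an acyltransferase of phospholipid synthesis, had -2.20 and -2.15 at 2 probe sets (adjusted p 0.113 and 0.281). CGREF1, a growth regulator with calcium-binding motifs, was 4.21 to 5.48 in antibiotics proximal tissue against 2.75 to 2.90 in controls, and its difference was -3.33 (adjusted p 0.0661).

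Several genes of this rank had a higher distal mean with antibiotics and a flat proximal mean. CHID1, a lysosomal chitinase-domain protein, differed by 1.47 (SE 0.30, limma adjusted p 0.0661). P2RX4, an ATP-gated channel of lysosomal and plasma membranes, had 1.46 (adjusted p 0.0661) and 1.26 (adjusted p 0.281) at 2 probe sets. SLC35B2, the Golgi carrier of the sulfate donor, had 1.31 and NVL, an ATPase of ribosome assembly, 1.13, with distal effects of 1.37 and 1.12 that passed within distal tissue (adjusted p 0.00504 and 0.00518). TLR2, a receptor for bacterial lipoproteins, fell in distal tissue by 4.01 (SE 0.45, limma adjusted p 0.000166). It was 4.14 to 5.35 there with antibiotics and 7.72 to 9.49 in controls, whereas proximal arrays were 3.14 to 4.40 and 4.83 to 6.40. The proximal treated levels were dim, and the difference of -2.62 (SE 0.63) did not pass (adjusted p 0.176).

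Beyond single genes, 19 pathway lists with 304 measured genes were described by their counts and medians beside all 4684 genes tested. Over all genes the median difference between the effects was 0.09, the difference was below 0 in 2009 (42.9%), and 685 (14.6%) had a higher mean with antibiotics in proximal and a lower mean in distal tissue. In the list of fat absorption and lipoprotein genes it was met by 10 of 20, in fatty acid oxidation and ketogenesis by 8 of 16, and in cholesterol synthesis by 9 of 11. The median difference in these lists was -0.91, -0.92 and -0.96, and the difference was below 0 in 18 of 20, 15 of 16 and 11 of 11 genes. Only INSIG1 of the genes in these 3 lists passed the test of the difference. Of all 4684 genes, by their brightest probe set, 6 passed below 0 and 4 above 0.

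In the fat absorption list, 7 members were below and 1 above 0 at the unadjusted p of 0.05 (3.8% and 3.84% of all genes). APOA4, an apolipoprotein of chylomicrons, was 12.32 to 13.43 in antibiotics proximal and 10.78 to 12.42 in control proximal tissue, and 8.87 to 10.47 against 9.74 to 12.28 in distal tissue. Its difference was -2.69 (SE 0.73, limma adjusted p 0.281). SAR1B and MTTP, which load and export chylomicrons, had differences of -1.51 (SE 0.39, adjusted p 0.234) and -1.28 (SE 0.37, adjusted p 0.325). APOE, which takes lipoproteins into cells, was the member above, at 2.69 (SE 0.97, adjusted p 0.559), and at 1.01 without control distal 83 and 88. APOC2, the cofactor of lipoprotein lipase, rose in proximal tissue by 5.99 (SE 1.07, adjusted p 0.0435). It was 9.83 to 11.87 there with antibiotics against 2.14 to 7.82 in controls, with a distal effect of 3.13 (SE 1.07, adjusted p 0.154) and a difference of -2.85 (SE 1.51, adjusted p 0.790). The low controls were 83 and 92 (2.88 and 2.14), and without them the proximal effect was 3.66 (adjusted p 0.516) and the difference -0.52. Of 16 fits without 1 array, the proximal rise passed in 6.

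For oxidation and sterol genes, ACAA2, a mitochondrial thiolase, was 11.29 to 12.75 in antibiotics proximal and 9.72 to 11.53 in control proximal tissue, with a difference of -2.31 (SE 0.65, limma adjusted p 0.285). CPT1A, which admits fatty acids to mitochondria, fell in distal tissue by 1.50 (SE 0.35, adjusted p 0.0377, and 0.151 without control distal 83 and 88) at a proximal effect of 0.04, and the difference was -1.54 (SE 0.50, adjusted p 0.425). ANGPTL4, a lipase inhibitor induced by fasting and by fatty acids, fell in distal tissue by 2.11 (adjusted p 0.0453, past the threshold in 6 of 16 fits without 1 array), with a difference of -2.29 (adjusted p 0.421). SC5D, a sterol desaturase, had 0.75 in proximal and -1.11 in distal tissue and a difference of -1.86 (SE 0.42, adjusted p 0.128).

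These list medians move with the arrays that stood apart. The fat absorption list itself was 10.31 and 10.15 in control proximal 83 and 92, 11.63 and 11.61 in the other proximal controls and 11.84 to 12.33 with antibiotics. Without control proximal 83 and 92 its median difference was -0.49, and without control distal 83 and 88 it was -0.51. In the latter case its median distal effect turned from -0.17 to 0.17 and the opposite pattern was met by 6 of 20. Fatty acid oxidation then had a median distal effect of 0.16 and the pattern in 4 of 16. In cholesterol synthesis the count was 9 of 11 without the distal pair and 10 of 11 without the proximal pair (medians -0.80 and -1.39). The brush border list, not about fat, met the pattern as well, with 5 of 8 genes (2 without the proximal pair). Among enterocyte markers it was met by 6 of 7 (5 without that pair). Of the 7, FABP1, FABP2, APOA1 and APOA4 also belong to the fat absorption list. The 7 enterocyte markers had a median difference of -1.02, and -0.35 without control proximal 83 and 92. With genes shared, this list and the fat absorption list are not independent. VIL1 was the 1 marker with the reverse direction. It was 12.37 to 13.37 in antibiotics proximal and 12.95 to 13.27 in control proximal tissue, and 13.09 to 13.41 against 12.82 to 13.44 in distal tissue. The part of enterocyte number in the lipid lists was not tested.

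**Figure D5:**
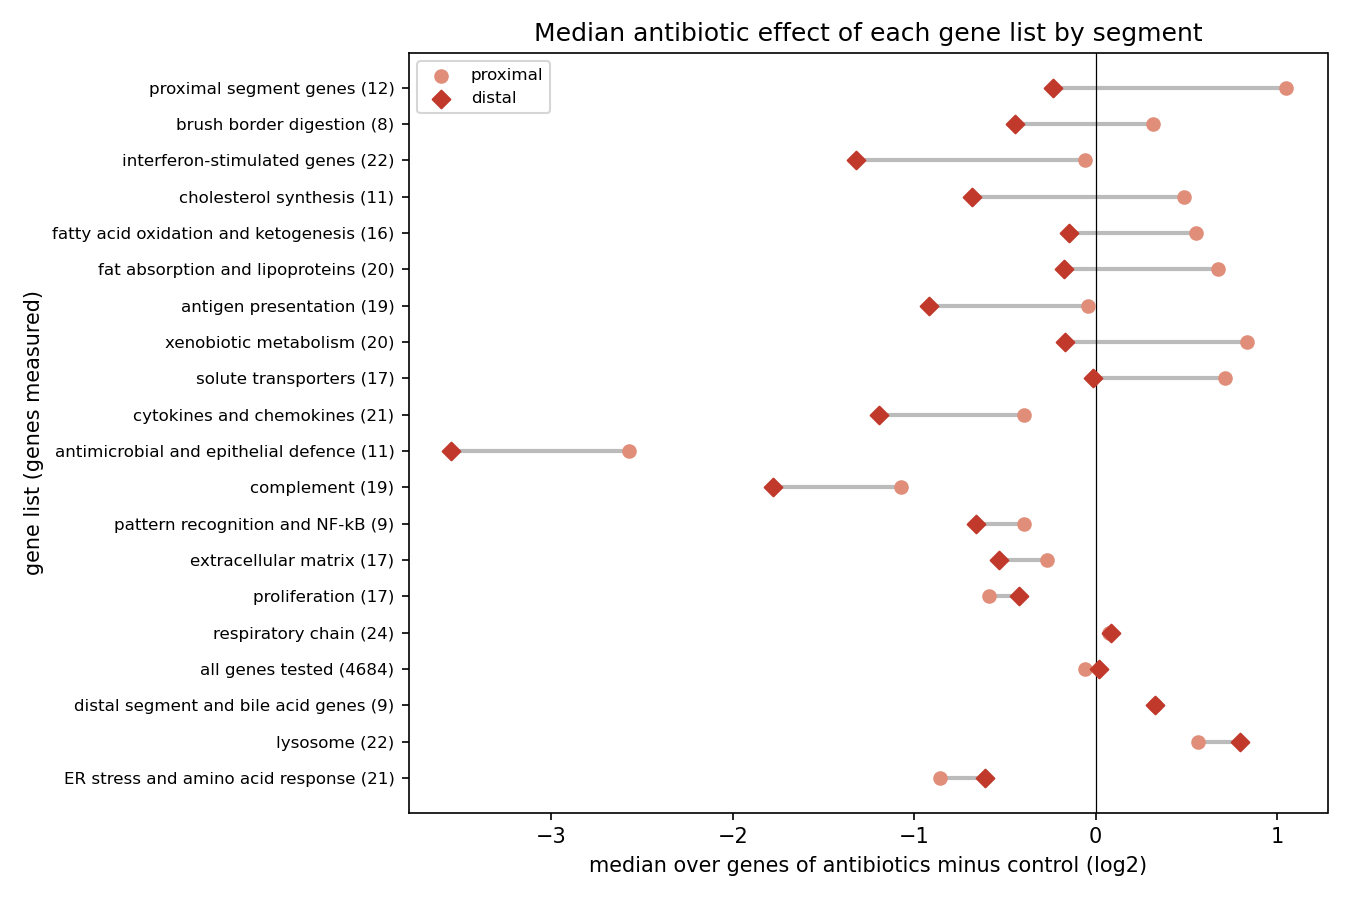
Median antibiotics minus control over the genes of each list (horizontal axis, log2) in proximal (circles) and distal tissue (diamonds), 4 arrays per group; the number of measured genes follows the list's name. The fat absorption, fatty acid oxidation, cholesterol and xenobiotic lists lie above 0 in proximal and below 0 in distal tissue. So do the proximal segment, brush border and solute transporter lists, the last at -0.02 in distal tissue. Interferon-stimulated genes and antigen presentation are near 0 in proximal and below it in distal tissue. Antimicrobial defence and complement are below 0 in both.

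Other lists of the absorptive epithelium also had median differences below 0. The median difference was -0.71 for solute transporters, -0.98 for brush border digestion and -1.27 for proximal segment genes. Without control proximal 83 and 92 it was -0.06, -0.18 and -0.35. In the xenobiotic metabolism list, 7 of 20 genes were below and 0 above 0 at the unadjusted p (3.8% and 3.84% of all genes). The median difference of this list was -0.78, and -0.81 without that pair. CYP3A29, a drug-oxidizing cytochrome, was 14.48 to 14.97 in antibiotics proximal tissue and 9.18 to 9.68 in controls, save control proximal 88 at 14.54, and its difference was -5.32 (SE 1.45, limma adjusted p 0.281). It was -6.59 without that array, with an adjusted p of 0.0118, and -3.95 without control proximal 83 and 92 (adjusted p 0.740). TMPRSS15, the enteropeptidase that starts protein digestion, was 11.94 to 12.50 in antibiotics proximal tissue and 6.60 to 12.82 in controls, again with control proximal 88 the highest. Its difference was -4.92 (adjusted p 0.339), and -6.15 without that array (adjusted p 0.0230). It was -3.33 without control proximal 83 and 92 (adjusted p 0.805) and -3.35 without control distal 83 and 88 (adjusted p 0.591). SLC25A1, the mitochondrial citrate carrier, rose in proximal tissue by 1.77 (SE 0.29, adjusted p 0.0242, and 0.516 without control proximal 83 and 92) with a distal effect of 0.35, and its difference of -1.42 did not pass (adjusted p 0.324).

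Immune lists had a different layout, with median effects near 0 or below in proximal tissue and further below 0 in distal tissue. Some were well below 0 in both. The antimicrobial defence list had medians of -2.57 in proximal and -3.56 in distal tissue, and complement -1.07 and -1.78. Cytokines and chemokines had -0.39 and -1.19, and pattern recognition -0.40 and -0.66, in the same order. Of 22 interferon-stimulated genes, 18 had a difference below 0, the median was -0.98, and the median effects were -1.32 in distal and -0.06 in proximal tissue. Within distal tissue 6 of them fell (68 of all 4684 genes fell there), and 1 fell in proximal tissue (8 of all 4684 genes). IRF1, which switches on genes of the interferon response, fell in distal tissue by 2.06 (limma adjusted p 0.0101) at a proximal effect of -0.19, and its difference was -1.87 (SE 0.55, adjusted p 0.338). Control distal 88 was the lowest distal control of this list (6.90, the others 8.50 to 9.90), and without control distal 83 and 88 the median difference was -2.30 with 22 of 22 below 0.

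Of 19 antigen presentation genes, 16 had a difference below 0 (median -0.87, and -0.57 without control distal 83 and 88 and -0.54 without control proximal 83 and 92). TAP1, which pumps peptides to class I molecules, fell in distal tissue by 2.71 (SE 0.50, limma adjusted p 0.00981), from 8.87 to 11.10 in controls to 7.01 to 8.31. Its proximal effect was -0.75 (SE 0.50) and its difference -1.95 (adjusted p 0.563). SLA-DRA, SLA-DRB1 and SLA-DQA1 are class II genes added after their values were seen. They had distal effects of -1.84, -1.86 and -1.44 and proximal effects of 0.07, -0.04 and 0.19. In the antigen presentation list 2 of 19 genes fell in distal tissue, TAP1 among them (68 of all 4684 genes did). No gene of this list passed the test of the difference. C1QC, a complement subunit made by macrophages, fell in distal tissue by 2.05 (adjusted p 0.0399, and 0.130 without control distal 83 and 88), with 0.17 in proximal tissue and a difference of -2.22 (adjusted p 0.395). Of 9 macrophage and monocyte markers on the array, C1QC included, 3 (CD14, FCGR1A and SIGLEC1) were at or near the lowest value of 2.14 in every array, the highest being CD14 at 2.34. The mean of the 9 was 4.48 to 5.22 in antibiotics distal against 6.21 to 6.41 in control distal tissue, and 5.04 to 6.16 against 6.06 to 6.73 in proximal tissue. Their part in these results was not tested.

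Medians close to that of all genes were found for proliferation (median difference -0.03, 17 genes), the respiratory chain (0.03, 24 genes) and extracellular matrix (-0.09, 17 genes), where 0 genes passed the unadjusted p. Proliferation was at -0.38 without control proximal 83 and 92, and extracellular matrix at -0.37 without control distal 83 and 88. The lysosome list was above 0 (0.22, 22 genes) but at -0.24 without control distal 83 and 88. Its sialidase NEU1 rose in distal tissue by 2.31 (SE 0.58, limma adjusted p 0.0489), from 7.31 to 10.07 in controls to 10.66 to 10.92, with a proximal effect of 0.12 and a difference of 2.19 (adjusted p 0.570). Its low controls were 83 and 88, without which the distal effect was 1.31 (adjusted p 0.252). The rise passed in 5 of 16 fits without 1 array.

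Responses shared by the segments form the counterpart. Antibiotics lowered 10 probe sets in both segments and raised 0, and 0 of these 10 passed the test of the difference (limma adjusted p 0.477 or more, 1 at the unadjusted p of 0.05), with differences from -1.51 to 1.23. Without control proximal 83 and 92, 1 probe set was called in both. DMBT1, a secreted scavenger receptor that binds bacteria, fell by 4.20 (SE 0.36) in distal and 2.69 (SE 0.36) in proximal tissue. The difference of -1.51 had a 95% interval of -2.59 to -0.43 and did not pass (adjusted p 0.477). S100A9, a calprotectin subunit of neutrophils, was 2.28 to 2.39 and 6.20 to 11.08 in distal and 2.28 to 5.30 and 6.68 to 10.91 in proximal tissue, antibiotics first, and its difference of -1.35 had an interval of -4.47 to 1.77. ARG2, an arginase, had 1.23 with an interval of -0.81 to 3.28. Intervals this wide do not show that the segments responded alike.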

How the data were processed

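RNA from proximal and distal small intestine was measured on Affymetrix porcine arrays, 16 in all. The authors deposited log2 values per probe set, and GCOS 1.2, GCRMA and limma are named in the submitters' processing notes. Their settings were not stated there. GCRMA sets dim values near a floor of 2.14, so folds that reach it are uncertain.

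Of 24123 probe sets, 124 controls were left out. The annotation gave 1 gene for 10069, no gene for 13732 and more than 1 for 198. Probe sets above log2 5 on at least 4 of 16 arrays were tested, 11538 in all, for 4684 genes. Limma 3.58.1 in R 4.3.3 fitted 4 group means (lmFit, eBayes), and all p-values were adjusted over the tested probe sets (Benjamini-Hochberg, threshold 0.05). The brightest tested probe set stands for a gene, or the called one for SLC1A1. The number of arrays limits the precision. The code was tested on simulated data.

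Named genes were all those past the threshold, then by p up to 30, per list the 2 members of largest absolute moderated t, up to 10 called in both segments, and 7 chosen genes. The text names some of them, and list members past the unadjusted p were added after their values were seen. Members and lists were chosen with earlier results of these data known. Lists are described without a test.

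The pairing comes from the number in the array names, read as the animal's. Residuals of an animal's segments correlated at 0.0293 to 0.526, above 0.1 in 5 of 7 animals. Alternatives were other filters and normalizations, array weights, a 5′ minus 3′ covariate, animal blocks and arrays left out. Leaving out control proximal 83 and 92 was chosen after seeing the data. Between treatments, the 5′ minus 3′ difference of control probe sets had an exact permutation p of 0.457 in distal and 0.543 in proximal tissue. Plots used Python 3.11.15 and matplotlib 3.10.9.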

Additional observations from a re-analysis of the deposited data

Results flagged for a closer look

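By limma's test of the difference itself, 11 named genes passed the threshold for an antibiotic effect that differed between the segments. The difference, distal minus proximal, was 7.84 for TDH, 3.46 for UPK3A, 3.84 for XIRP2, 2.22 for TDRP and 2.30 for SLC1A1. It was -5.09 for GBP1, -6.46 for PI3, -2.18 for TMEM135, -1.95 for GPD1L, -3.91 for MFSD2A and -2.07 for INSIG1. TDH, UPK3A, XIRP2 and TDRP met the filter only through the antibiotics distal group, where they are high. PI3 was dim in every proximal array, so a fall there could not have been measured. Without the filter only TDH, UPK3A and GBP1 of the 11 passed, and with the animal as a fixed block only TDH, GBP1 and XIRP2.

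Single arrays lay far from the other 3 of their group in 16 of 197 groups of 4 among the genes described, where chance gives about 1 in 20. In control proximal tissue these were animal 89 for UPK3A (5.10, the others 3.70), SC5D (12.15) and CTSH (13.33), animal 83 for CHID1 (8.79), animal 92 for TLR2 (6.40) and animal 88 for CYP3A29 (14.54, the others 9.18 to 9.68). In antibiotics proximal tissue it was animal 98 for SLC1A1 (5.68). In control distal tissue they were animal 89 for P2RX4 (7.23), animal 83 for CYP2C49 (2.73, the others 8.42 to 9.22) and animal 88 for C1QC (9.96) and TAP1 (8.87, the others 10.97 to 11.10). In antibiotics distal tissue they were animal 85 for XIRP2 (6.33) and ELOVL6 (4.93), animal 87 for PI3 (8.13) and C1QC (5.48), and animal 86 for FABP6 (7.97, the others 10.27 to 10.64).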

How the results depend on the processing

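The count of 22 probe sets whose antibiotic effect differed between segments was 16 to 23 with the 5′ minus 3′ covariate, gene means, equal array medians, a log2 7 filter, repeated quantile normalization or a robust eBayes trend. It was 11 with no filter, 210 with array quality weights, 38 at an adjusted p of 0.10 and 14 over only the 7 animals with both segments. The pairing of segments by animal moved it in both directions: 39 with the animal as a random replicate block, 9 as a fixed replicate block and 9 from 1 difference per animal. It was 10 without control distal 83 and 88, 10 without control proximal 83 and 92, and 10 to 44 leaving out each array in turn. Of the 22 probe sets, 8 were among the 9 with the fixed block and 21 among the 210 with array weights. With the fixed block TDH, GBP1 and XIRP2 passed (adjusted p 0.0247 for both GBP1 and XIRP2) and the other 8 named genes did not. With the 5′ minus 3′ covariate the count was 16, and 14 of these were among the 22. Of the 11 named genes 6 passed with this covariate, and TMEM135, GPD1L, SLC1A1, MFSD2A and TDRP did not. No difference of the 11 named genes changed sign under any setting run. The cause of these shifts was not tested. The dim floor limits the size of TDH, UPK3A, XIRP2, TDRP and PI3 differences.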

Other observations

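Of the 22 probe sets past the threshold, 10 had no gene name in the annotation used here. Ssc.17889.1.A1_at had the largest difference of all 22, -8.94: it was 4.09, 2.38, 4.01 and 2.95 in antibiotics distal against a mean of 10.43 ± 2.27 (SD, n = 4) in control distal tissue, and 11.09 to 12.52 against 9.01 to 10.92 in proximal tissue, with no overlap in either segment. Ssc.26009.1.S1_at, at 4.29 to 6.67 in antibiotics distal tissue and 7.26 to 10.88 elsewhere, differed by -5.98. Another had higher levels with antibiotics in proximal (0.88) and lower in distal tissue (-0.66). The other 7 were highest in antibiotics distal tissue. Among them Ssc.18979.1.A1_at differed by 3.31, and Ssc.22934.1.S1_at was 6.41 to 8.70 there and 3.21 to 5.44 elsewhere.

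Asparagine synthetase, ASNS, a gene of the amino acid response, was 12.37 and 12.02 in control proximal 83 and 92 and 8.24 and 8.66 in control proximal 88 and 89, with 6.50 to 8.67 after antibiotics. Its proximal effect was -2.97 (SE 0.76) and its distal effect -0.32 (SE 0.76), and the difference of 2.64 did not pass (limma adjusted p 0.643). Without control proximal 83 and 92 the difference was 0.77. Among the proximal controls, those with high ASNS were the ones lowest in enterocyte markers, and the part of either in the other was not tested.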
